A study of Mus musculus with 11 samples.

Results

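Hyaline cartilage, a part of the skeleton of the newborn nose, lies beneath the main olfactory epithelium (MOE), the sheet of tissue that holds the olfactory sensory neurons. Its signal was followed here through 10 cartilage matrix genes, Col2a1, Col11a1, Col9a1, Col9a2, Col9a3, Acan, Hapln1, Matn1, Comp and Cnmd, chosen by name out of the 18194 genes with a probe set of their own on the array. All 10 were present, on 17 probe sets, of which 16 passed the minimum mean signal of 20; the exception was 1 of 3 probe sets of Col9a3, at 3.6 to 39.7. For each gene the brightest probe set is described unless stated otherwise.

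RNA came from whole MOE of newborn BALB/c mice (postnatal day 0), with 1 array per preparation. By the labels, the wild type group held 5 males, and the Bcl11b KO group, lacking the zinc finger transcription factor Bcl11b in all tissues through a conventional knockout, held 4 males and 2 females (KO 3 and KO 6). All were offspring of heterozygous parents, and no other allele or treatment was given. Litter and dissection day were not in the labels, so p-values measure the spread between these preparations. As a check of the labels, Bcl11b read 3257 ± 529 in wild type (SD, n = 5). It fell to 893 ± 242 in KO (SD, n = 6), and no array of one group reached the other. The labelled tissue showed its neurons on every array, with Omp, the olfactory marker protein, at 440.4 to 702 in wild type and 239 to 451 in KO. In whole tissue, fewer cells of a type and less RNA per cell cannot be told apart.

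Cartilage matrix is built around fibrils of type II collagen, which type XI collagen nucleates and type IX collagen decorates. Between the fibrils, aggrecan binds hyaluronan and holds water, and smaller proteins link the network together. Chondrocytes switch these genes on through the transcription factors Sox9, Sox5 and Sox6, and in the nose they form the septum and the capsule that carry the epithelium.

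The members varied widely from preparation to preparation and did so together, while no member passed the test between wild type and KO. Averaged over the 10 genes, the level was 11.68 ± 0.222 on the log2(signal + 16) scale in wild type (SD, n = 5) and 11.38 ± 0.538 in KO (SD, n = 6). It lay between 11.41 and 11.94 on the wild type arrays and between 10.52 and 12.05 on the KO arrays. Both extremes were KO arrays. KO 2 was the lowest of the 11 arrays for 9 of the 10 genes and KO 5 for the remaining one, Col9a2, and KO 6 was the highest for 8.

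**Figure D1:**
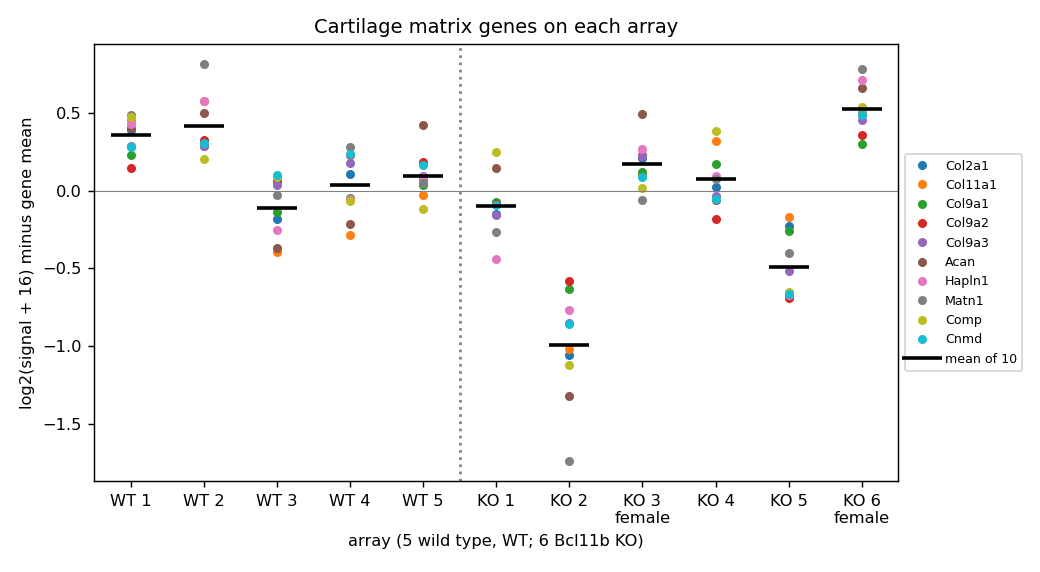
Log2(signal + 16) of the 10 cartilage matrix genes on each array, each gene minus its own mean over the 11 arrays; points are genes and black bars are the mean of the 10. The genes move together from array to array, with KO 2 lowest at a mean of -0.995, KO 5 next at -0.49 and KO 6 highest at 0.53.

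Col2a1 encodes the chain of type II collagen, the main fibril of cartilage. Its signal was 6875, 6510.4, 4629.8, 5658 and 5540.3 on wild type arrays 1 to 5, and on the 6 KO arrays it was 2509.9 at the lowest, 5031 at the median and 7419.8 at the highest. The KO arrays thus extended beyond wild type on both sides. The log2 difference, KO minus wild type, was -0.26 ± 0.20 (SE; limma, adjusted p = 0.932). Col11a1, a chain of type XI collagen, read 6331, 6883, 3492, 3777.5 and 4527 in wild type and 2267, 4669 and 6495 at the lowest, median and highest KO array. The wild type arrays here fell into 2 high and 3 lower ones, and the difference was -0.12 ± 0.23 (SE; limma, adjusted p = 0.987).

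The 3 chains of type IX collagen, which sits on the surface of the fibril, are encoded by Col9a1, Col9a2 and Col9a3. Among the brightest probe sets that of Col9a1 had the narrowest range, 1.9-fold, while its other probe set spanned 2.8-fold. The brightest read 8914, 9301, 6914, 7367 and 7793 in wild type and 4897, 7737 and 9360 at the lowest, median and highest KO array. Col9a2 read 1603, 1824, 1515, 1699 and 1649.8 in wild type and 890, 1321 and 1859 at the same points in KO. Col9a3 read 4604, 4610.3, 3869.5, 4267 and 4021 in wild type and 2087, 3529 and 5171 in KO. On these probe sets of Col9a2 and Col9a3 the wild type arrays lay close together, and the KO arrays reached both above and far below them. The other tested probe set of Col9a3 was wider in wild type, at 2327.8 to 4835.8, with KO between 1315.3 and 4821.4. Log2 differences of Col9a1, Col9a2 and Col9a3 on the brightest probe sets were -0.14 ± 0.14, -0.35 ± 0.17 and -0.32 ± 0.18 (SE; limma, adjusted p = 0.962, 0.732 and 0.816).

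Acan encodes aggrecan, the large proteoglycan, and Hapln1 encodes the link protein that fastens it to hyaluronan. Acan signals were 2994.5, 3202, 1747, 1953.5 and 3034 in wild type, and 895, 2338 and 3587 at the lowest, median and highest KO array. Hapln1 gave 2563, 2837, 1591, 1827 and 2021.5 in wild type, and 1108.5, 1711 and 3120.2 in KO. Neither gene separated the groups, with log2 differences of -0.27 ± 0.28 and -0.29 ± 0.23 (SE; limma, adjusted p = 0.967 and 0.94). The other 3 probe sets of Hapln1 gave -0.39, -0.25 and -0.33.

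Among the proteins that bridge the network, Matn1, matrilin 1, differed most between arrays, by 6.0-fold from lowest to highest. It read 3388, 4263, 2363, 2939.6 and 2502 in wild type, and 710.4, 2159 and 4169.6 at the lowest, median and highest KO array. It also had the largest group difference of the members, -0.59 ± 0.30 (SE; limma, adjusted p = 0.776). Comp, cartilage oligomeric matrix protein, read 1275.5, 1059, 973, 874 and 843 in wild type and 411.5, 1009 and 1336 in KO. Its difference was -0.21 ± 0.25 (adjusted p = 0.971). Cnmd, chondromodulin, a membrane protein of avascular cartilage that restrains vessel growth, was the steadiest in wild type, at 5671.5, 5752, 4992, 5496 and 5224. On the KO arrays it was 2563, 4426 and 6521 at the same points, with 5 of the 6 below every wild type array. The difference was -0.40 ± 0.18 (SE; limma, adjusted p = 0.659).

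In the comparison of the groups 153 of 33662 probe sets passed an adjusted p of 0.05, which is 0.455% (0.244% higher and 0.211% lower in KO), and 0 of the 16 member probe sets did in limma. At an unadjusted p under 0.05 there was 1 of the 10 genes, Cnmd, against 6.92% of all probe sets (2.45% lower in KO). Groups that did not overlap were found in 0 of the 10 genes and in 1.29% of all probe sets. All 10 estimates were below 0, with a median of -0.28 against 0.047 over all tested probe sets. Because the genes moved together from array to array, the 10 signs are not 10 separate observations. The 95% interval was -1.22 to 0.043 for Matn1 and -0.60 to 0.35 for Col11a1. Second probe sets of Col11a1, Col9a1 and Col9a3 gave -0.25, -0.25 and -0.24. Without KO 2 the median was -0.12, and without both KO 2 and KO 5 it was 0.0025. Leaving out both was chosen with the values in view. The spread within KO was larger than within wild type for all 10 genes, from a log2 SD of 0.085 in wild type and 0.50 in KO for Cnmd to 0.44 and 0.53 for Col11a1, and this difference in spread was not tested. The labels give no batch, but poly-A controls added at labelling were brighter on 2 wild type and 3 KO arrays than on the 3 wild type and 3 KO others. All 10 estimates were negative within each of these sets of arrays, with Matn1 at -0.50 in the brighter and -0.79 in the dimmer set.

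Sex was unequal between the groups, and the 2 female KO arrays stood above most of the male ones. Col2a1 was 6070.3 and 7419.8 in the female KO preparations and between 2509.9 and 5335 in the 4 male ones. With the 9 male arrays alone the median difference of the 10 genes was -0.57, against 0.086 over all probe sets. Cnmd, Col9a2 and, on its brightest probe set, Col9a3 were then lower on all 4 KO arrays than on any wild type array. That pattern held for 0.906% of all tested probe sets. On the other tested probe set of Col9a3 the groups overlapped, with 3809.6 on KO 4 and 2327.8 on wild type 3. Log2 differences of Cnmd, Col9a2 and Col9a3 among males were -0.64 ± 0.14, -0.58 ± 0.13 and -0.57 ± 0.14 (SE; limma, adjusted p = 0.0802, 0.0846 and 0.112). Of the 10 genes 0 passed, against 0.455% of all probe sets. At an unadjusted p under 0.05 there were 7 of 10, all lower in KO, against 9.41% of all probe sets (2.25% lower in KO). The genes moved together among the male arrays too, so the 7 are not 7 separate observations. All wild type arrays were male, so a difference by sex cannot be told apart from one between single KO preparations.

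**Figure D2:**
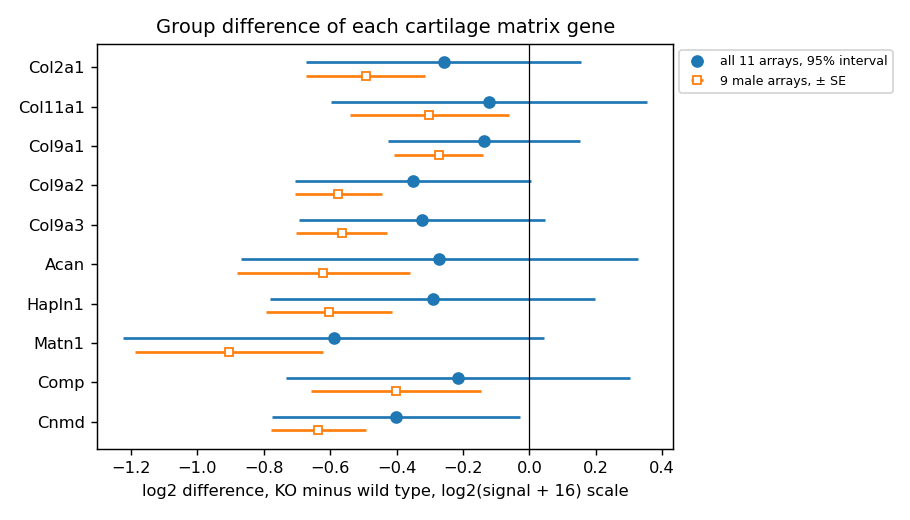
Log2 difference, KO minus wild type, of each cartilage matrix gene; circles give all 11 arrays with the 95% interval from limma and squares the 9 male arrays with the SE. All estimates lie below 0, from -0.59 (Matn1) to -0.12 (Col11a1) with all arrays and from -0.91 (Matn1) to -0.27 (Col9a1) among males.

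Per-array co-variation was measured after the group mean of each gene was subtracted, so that a difference between the groups could not produce it. Over the 11 arrays the 45 pairs of members had Pearson r of 0.64 to 0.98, with a median of 0.89. The closest pair was Col9a3 and Cnmd (0.98), and the loosest was Col9a2 and Col11a1 (0.64). Among the 6 KO arrays the median was 0.92 and among the 6 arrays of lower poly-A control signal it was 0.90. Correlations were given over no fewer than 6 arrays, so the 5 wild type arrays and the 5 of higher poly-A control signal were not taken alone. Without KO 2 and KO 5 the median was 0.76 with a lowest pair of 0.018. All genes of an array share its scaling, and over all probe sets r with Col2a1 had a median of 0.14, with 5% of them above 0.68.

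**Figure D3:**
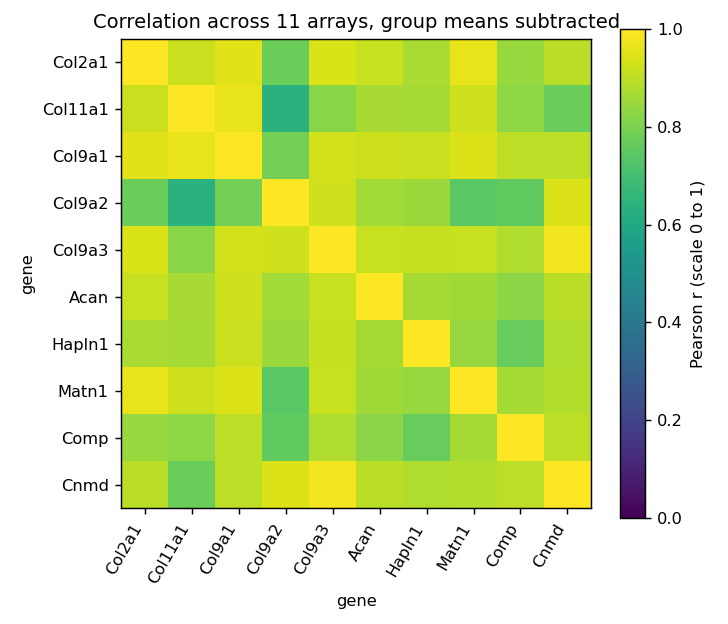
Pearson r between each pair of cartilage matrix genes over 11 arrays after subtraction of group means, on a colour scale from 0 to 1. Values run from 0.64 (Col9a2 with Col11a1) to 0.98 (Col9a3 with Cnmd), and Col9a2 has the lowest row.

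With Col2a1 as the reference, Matn1 ranked first of 33660 probe sets by r within groups (0.97), Col9a1 at rank 3 (0.96) and Col9a3 at rank 9 (0.94). The other members were at rank 30 (Col11a1), 35 (Acan), 66 (Cnmd), 118 (Hapln1), 205 (Comp) and 606 (Col9a2). In a fit of every probe set on the Col2a1 level with group in the model, 8 of the 9 members passed in the positive direction, as did 0.205% of all probe sets (limma). Matn1 changed by 1.51 ± 0.15 log2 units for each log2 unit of Col2a1 (SE; limma, adjusted p = 0.000436), Acan by 1.34 ± 0.18 (adjusted p = 0.00493) and Col9a1 by 0.64 ± 0.093 (adjusted p = 0.00851). Col9a2 did not pass, at 0.59 ± 0.17 (adjusted p = 0.181). Negative association held for 0.0713% of probe sets and for 0 members.

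Those calls rested on 1 array. Without KO 2, 0 probe sets passed over the whole array (limma; 1216 at an unadjusted p under 0.05, or 3.61%), and 0 of the 9 members did, although all 9 had an unadjusted p under 0.05. Their r within groups was then 0.63 (Comp) to 0.96 (Hapln1), against a median of 0.026 and a 95th percentile of 0.56 over all probe sets. Over all 11 arrays with group means kept, Pearson r with Col2a1 was 0.80 (Col9a2) to 0.96 (Matn1) and Spearman rho 0.67 (Comp) to 0.96 (Col9a3), 9 relations in all. Permutation p-values were 1e-05 to 0.003 for r and 3e-05 to 0.03 for rho, and 1e-05 is the smallest that 100000 permutations can give. These p-values are not adjusted, and the adjusted ones are those of the limma fit over all probe sets. Without the arrays farthest from the Col2a1 median, KO 2 and KO 6, r was 0.52 (Comp) to 0.94 (Hapln1). Within the 6 arrays of lower poly-A control signal r was 0.85 (Comp) to 0.99 (Col9a1).

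A fit at equal Col2a1 removes, by its design, what the other members share with Col2a1, itself a member. Differences in this fit were -0.20 for Matn1, Cnmd and Col9a2, -0.11 for Col9a3, -0.029 for Hapln1, 0.027 for Col9a1, 0.050 for Comp, 0.076 for Acan and 0.15 for Col11a1, of which 0 of 9 passed (limma, adjusted p of 0.612 to 0.977), against 0.648% of all probe sets. The unadjusted fit had given all 9 a negative value, and no member had passed there either. Smaller values at equal Col2a1 therefore do not tell whether the groups differ in cartilage signal. This setting was chosen with the data in view.

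Sequence just before the start of transcription was compared for the members, as genes that move together. RefSeq promoter windows of the mouse assembly GRCm38.p6 were matched for 7 of the 10 genes (all but Col2a1, Col9a3 and Comp), 8 windows in all, and the 250 bases before the start were searched on both strands. The 3 shown are Matn1, which followed Col2a1 most closely (chr4:130944135-130944384, plus strand), Acan, which stood in the same fit with the next steepest slope among the brightest probe sets (chr7:79052976-79053225, plus strand), and Cnmd, the member of smallest p between the groups (chr14:79662184-79662433, minus strand). Capitals mark GGGCGG or its reverse complement CCGCCC, the GC box.
Matn1: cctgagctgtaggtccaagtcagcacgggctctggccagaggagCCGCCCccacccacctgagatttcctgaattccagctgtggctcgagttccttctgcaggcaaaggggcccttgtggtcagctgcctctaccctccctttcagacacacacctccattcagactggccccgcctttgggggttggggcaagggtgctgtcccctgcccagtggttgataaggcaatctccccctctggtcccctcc
Acan: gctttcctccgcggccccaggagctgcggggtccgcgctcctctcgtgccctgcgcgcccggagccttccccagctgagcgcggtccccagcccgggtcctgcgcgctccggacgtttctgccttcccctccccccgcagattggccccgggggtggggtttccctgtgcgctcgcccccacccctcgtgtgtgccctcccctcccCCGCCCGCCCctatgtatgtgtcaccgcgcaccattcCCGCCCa
Cnmd: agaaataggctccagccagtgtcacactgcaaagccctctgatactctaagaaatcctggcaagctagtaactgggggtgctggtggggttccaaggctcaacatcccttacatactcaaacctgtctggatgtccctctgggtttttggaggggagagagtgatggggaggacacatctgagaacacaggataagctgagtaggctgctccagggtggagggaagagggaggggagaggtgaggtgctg
The GC box was present in 4 of the 8 member windows and in 32.7% of all 32851 windows. It was present at 1 position in Matn1 and 3 in Acan, of which a pair overlaps, and it was not matched in Cnmd. The letters AACAAT and ACAAAG, cores bound by SOX proteins, were matched in 0 of the 8 windows, against 9.42% and 16.5% of all windows, and TATAAA in 0 against 12.4%. Only these exact letters were searched, so SOX sites of other letters or outside the windows were not covered. GC content was 62.0% in Matn1, 74.4% in Acan and 54.0% in Cnmd, with a median of 52.4% over all windows.

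Other genes of cartilage behaved like the members on some points. Of 20 further matrix genes tested, 0 passed between the groups, 16 had a negative estimate and the median was -0.23 (limma). At an unadjusted p under 0.05 there were 2, against 6.92% of all probe sets. All 20 correlated positively with Col2a1 within groups, with a median r of 0.81, against 62.7% of all probe sets. In the association fit 6 passed, against 0.205% of all probe sets in the positive direction. These were Col11a2, the second chain of type XI collagen (r = 0.94, limma, adjusted p = 0.0147), Epyc, epiphycan (0.93, adjusted p = 0.00411), Ucma, a secreted protein of growth zone cartilage (0.92, adjusted p = 0.0457), Mia (0.87, adjusted p = 0.0243), Fmod, fibromodulin (0.87, adjusted p = 0.0195), and Prelp (0.84, adjusted p = 0.049). Epyc, Mia, Fmod and Prelp were picked out with their values known.

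Cytl1, a secreted cytokine-like protein made by chondrocytes, had the smallest p of the matrix list and followed Col2a1 less closely than the members did. It read 983.8, 1115, 1103, 1325 and 1084 in wild type and 512, 664 and 994 at the lowest, median and highest KO array, so that 5 of the 6 KO arrays were below every wild type array. The log2 difference was -0.66 ± 0.18 (SE; limma, adjusted p = 0.158), it was -0.60 at equal Col2a1, and r with Col2a1 was 0.28. Ucma differed by -0.51 ± 0.18 (SE; limma, adjusted p = 0.454).

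Among genes of matrix synthesis 0 of 16 passed between the groups (median 0.012). All 16 had positive r with Col2a1, against 62.7% of all probe sets, and 2 passed in the association fit, against 0.205%. These were Serpinh1, the collagen chaperone (r = 0.89, limma, adjusted p = 0.0157), and Chsy3, a chondroitin synthase (0.91, adjusted p = 0.0195), both picked out with their values known. Chst3, a chondroitin sulfotransferase, and Has2, which makes hyaluronan, had the smallest p between the groups, with log2 differences of -0.94 ± 0.25 and -0.50 ± 0.21 (SE; limma, adjusted p = 0.16 and 0.603). Chst3 was dim, with a mean of 34.8 ± 4.87 over the wild type arrays (SD, n = 5) against 12.1 ± 10.9 over the KO arrays (SD, n = 6), and its groups did not overlap. It reached the minimum mean signal of 20 only through wild type, the group where it was higher.

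Of the transcription factors that drive cartilage genes, Sox6 followed Col2a1 (r = 0.89, limma, adjusted p = 0.0239) on 3 of its 4 probe sets, and its difference between the groups was 0.053 ± 0.28 (SE). Sox5 had r of 0.87 and did not pass (adjusted p = 0.105). Sox9 had r of 0.20 (adjusted p = 0.831) and a group difference of 0.12 ± 0.26; the gene is also active in olfactory glands. Sox6 and Sox9 were picked out with their values known. Over the list 0 of 10 passed between the groups, with Sox5 (-0.41) and Prrx1 (-0.22) of smallest p. Positive r with Col2a1 held for 8 of the 10 (median 0.47), against 62.7% of all probe sets.

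In the growth signalling list 0 of 16 passed and the median was 0.060. Positive r with Col2a1 held for 13 of the 16 (median 0.38), against 62.7% of all probe sets, and 0 passed in the association fit. Fgfr3, the receptor that slows chondrocyte growth, read 1505, 1354, 979, 1125 and 1144 in wild type and 590, 734 and 1129.5 at the lowest, median and highest KO array, with 5 of the 6 KO arrays below every wild type array. The log2 difference was -0.64 ± 0.16 (SE; limma, adjusted p = 0.114), it was -0.53 at equal Col2a1, and its r with Col2a1 was 0.64. Fgfr3 passed under scaling to the array median, quantile normalization, spiked controls, the male arrays, the poly-A control split as a covariate and without KO 6. Ccn2, a matricellular growth factor, differed by 0.24 ± 0.086 (SE; limma, adjusted p = 0.435). Of 10 genes of matrix turnover 0 passed, with Mmp9, a gelatinase of cells that resorb cartilage and bone, at 0.73 ± 0.21 and Timp3, an inhibitor of such enzymes, at 0.35 ± 0.11 (SE; limma, adjusted p = 0.2 and 0.35). Positive r with Col2a1 held for 6 of the 10 (median 0.21), near the 62.7% of all probe sets, and 0 passed in the association fit. Mmp13, picked out with its values known, had r of -0.67. It read 1551 on KO 2 and 1876 on KO 5, and between 182.3 and 588.4 on the others.

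Signals of the tissues around cartilage moved with it to different degrees. All 14 tested fibroblast and perichondrium genes had positive r with Col2a1 (median 0.76), against 62.7% of all probe sets. Postn, periostin, picked out with its value known, passed (r = 0.89, limma, adjusted p = 0.0147), as did 0.205% of all probe sets. The list mean lay between 11.09 and 11.60 in wild type and between 10.89 and 11.69 in KO, lowest on KO 2 and highest on KO 6. Pdgfra and Col1a2 had the smallest p between the groups, with differences of 0.41 and 0.16 (limma, adjusted p = 0.437 and 0.664). Bone genes were mixed. Of the 8 tested, 5 had negative r with Col2a1, where 62.7% of all probe sets had positive r. Sost (0.80) and Alpl (0.72), picked out with their values known, had positive r, though Sost was dim, at 11.4 to 31.7. In the association fit 0 of the list passed. The group difference was positive in 7, and the list mean lay between 6.66 and 7.27 in wild type and between 6.88 and 7.86 in KO. Dmp1, a matrix protein of osteocytes, read 14.4, 24, 9.7, 24.5 and 16.7 in wild type and 20.7, 69.9 and 113.1 at the lowest, median and highest KO array. KO 3 alone lay within the wild type range, and the difference of 1.26 ± 0.27 did not pass (SE; limma, adjusted p = 0.0506). Dmp1 reached the minimum mean signal only through KO, the group where it was higher. Ibsp, bone sialoprotein, differed by 0.95 ± 0.40 (SE; limma, adjusted p = 0.607).

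Sustentacular and gland genes mostly ran the other way. Negative r held for 10 of 12 (median -0.52), where 62.7% of all probe sets had positive r, and 0 passed in the association fit. The list mean was 11.82 on KO 2 and 11.63 on KO 5, above the 9 other arrays (9.57 to 11.31), and 9.97 on KO 6. Obp2a, an odorant-binding protein of nasal glands chosen after its values were seen, read 6322 on KO 2 and 1792 on KO 5, and between 15.5 and 1089.8 on the others. Muc2 and Cyp2g1 had the smallest p between the groups in that list, with differences of 0.44 and -0.12 (limma, adjusted p = 0.904 and 0.941). Unlike Cyp2g1 (r of -0.77), Muc2 went with Col2a1 (r of 0.74) and was lowest on KO 2, at 230.9. For olfactory sensory neuron markers, 7 of 12 had negative r, and the list mean was 10.59 to 10.90 in wild type and 10.10 to 10.54 in KO, without overlap. Of the 12, 4 passed as lower in KO, against 0.211% of all probe sets. Stoml3 and Cnga4 fell by 1.21 and 1.04 between the groups (limma, adjusted p = 0.000794 and 0.00468), and at equal Col2a1 by 1.36 and 1.12. Gng13 and Gnal, named after their values were known, fell by 0.82 and 0.69 (limma, adjusted p = 0.00512 and 0.00545). The signal of 3' over 5' GAPDH probe sets, which rises as RNA degrades, ran from 1.82 to 2.70 and was highest on KO 3 (2.70) and KO 2 (2.42), which lay on opposite sides of the cartilage mean. The part of dissected tissue, sex and RNA quality in the cartilage signal was not tested.

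**Figure D4:**
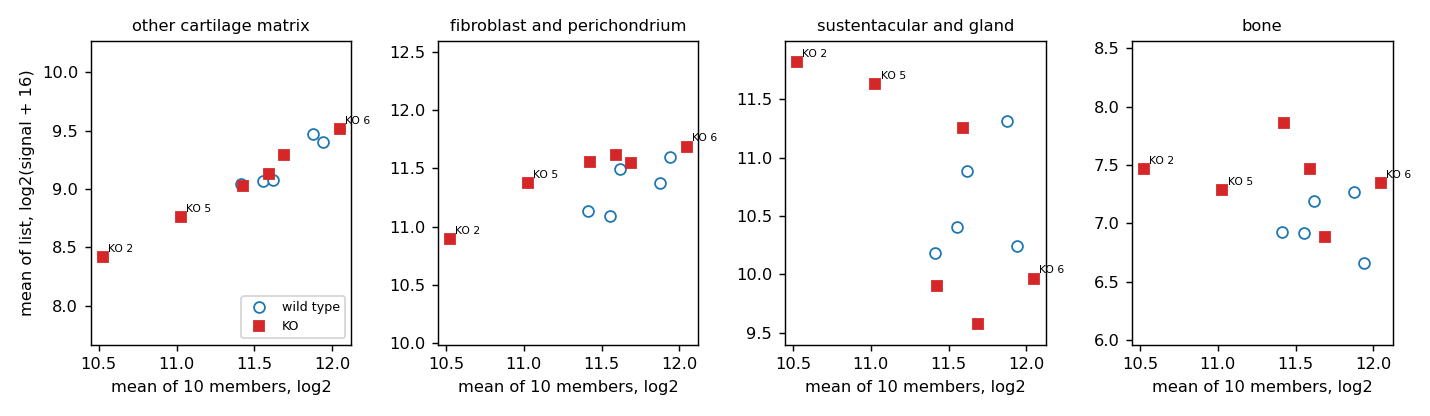
Mean log2(signal + 16) of 4 gene lists (other cartilage matrix, fibroblast and perichondrium, sustentacular and gland, bone) against the mean of the 10 cartilage matrix genes; each point is an array, open circles wild type and filled squares KO, and each panel spans the same height. The other cartilage matrix genes rise along the axis from 8.42 (KO 2) to 9.52 (KO 6), while sustentacular and gland genes are highest on KO 2 (11.82) and KO 5 (11.63).

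The genes outside the members whose signal was most like Col2a1 within groups, over 11 arrays, were by rank Cthrc1 (r = 0.96), Nid2 (0.95), Meox1 (0.95), Col11a2 (0.94), P3h3 (0.94), Susd5 (0.94), Thbs3 (0.94), Rtl3 (0.94), Adam12 (0.94) and Ucma (0.94). Col11a2, Susd5 and Ucma are also in the matrix list, the latter pair here on probe sets other than their brightest. Cthrc1 encodes a collagen triple helix repeat protein, Nid2 a basement membrane nidogen, P3h3 a collagen prolyl hydroxylase and Thbs3 a thrombospondin. None of the 10 passed between the groups (limma, adjusted p of 0.317 to 0.998). Rtl3 passed at equal Col2a1, with a difference of 0.89 (limma, adjusted p = 0.00472), as did 0.648% of all probe sets. It was picked for its r with Col2a1 in these same arrays, which lowers its remaining spread in that fit. This p-value thus rests in part on how the gene was picked.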

How the data were processed

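Whole MOE of 5 wild type and 6 Bcl11b KO mice was profiled on Affymetrix Mouse Genome 430 2.0 arrays after 2 rounds of amplification. Deposited values are linear intensities, which the authors scaled on each array to the GAPDH signal in GCOS (10000 on every array), so a group difference in GAPDH would move all values. Of 45101 probe sets, 34958 had 1 symbol, 932 several and 9211 none; symbols followed the platform annotation (0 changed on update).

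Each probe set was fitted by group with limma 3.58.1 under R 4.3.3 on log2(signal + 16), a scale that understates changes of dim probe sets. Control probe sets (64) and those of mean signal under 20 were left out, leaving 33662, with lmFit, eBayes with trend, and Benjamini-Hochberg adjustment at 0.05. The study's methods do not name its test. The number of arrays limits the precision. The fit was tested on simulated data.

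Members and lists were chosen with earlier results of these data known. Named were all members, genes past the threshold and the 2 of smallest p in each cartilage list, the 2 of smallest p in each list of another cell type, the 10 most like Col2a1, and Bcl11b; others are marked. Alternatives were other scalings, pseudocounts, filters, weights, sex, replicate block, a batch inferred from the poly-A controls, since the labels give none (2 wild type and 3 KO arrays higher, 3 and 3 lower), probe set means and left-out arrays.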

Additional observations from a re-analysis of the deposited data

Results flagged for a closer look

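Within each group, the array farthest from the others was checked for the 16 member probe sets and the other named genes, 96 groups of arrays in all. Chance alone marks about 1 in 20 such groups. The cartilage members had no array that stood apart by this measure, KO 2 included. Elsewhere 4 did. Cnga4 read 656 on wild type 3 against 457 to 505 on the other wild type arrays (gap 0.725 of the range on the log2 scale). Chst3 read 43.4 on wild type 1 against 31.6 to 33.8 (0.796). Ckm read 56.7 on wild type 2 against 8.4 to 10.1 (0.938). Muc2 read 231 on KO 2 against 616 to 1048 on the other KO arrays (0.643).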

How the results depend on the processing

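Cartilage members passed between the groups under 0 of 26 alternatives, and 257 of the 269 values of single members under alternatives were negative (smallest adjusted p in limma 0.0802). These values are not separate, because some settings repeat others by design. The filter and intensity trend settings repeat the main estimates. Sex as a covariate repeats the estimates of the male arrays, and the replicate block repeats those without KO 6. The 12 positive values were not all small beside the main estimates of -0.12 (Col11a1), -0.27 (Acan) and -0.21 (Comp). Without KO 2 and KO 5 they were 0.0043 (Col2a1), 0.054 (Col9a1), 0.15 (Col11a1), 0.16 (Acan), 0.18 (Comp) and 0.00069 (Hapln1), at equal Col2a1 0.027 (Col9a1), 0.15 (Col11a1), 0.076 (Acan) and 0.050 (Comp), and for Col11a1 0.0063 without wild type 2 and 0.070 without KO 2 (range -0.24 to 0.070 with single arrays left out). The member median ranged from -0.57 (males) to 0.0025 (without KO 2 and KO 5), and from -0.44 to -0.12 with single arrays left out. Spiked controls moved the median of all probe sets from 0.047 to -0.11 and that of the members from -0.28 to -0.46. The median pair correlation was 0.83 to 0.91 with single arrays left out and 0.76 without KO 2 and KO 5. Calls over all probe sets numbered 153 (53.6% higher), 229 on the array median (42.8%), 293 after quantile normalization (41.3%), 290 on spiked controls (20.3%), 345 with array weights, 254 without KO 2 and KO 5, and 85 to 213 with single arrays left out (85 without wild type 3, 97 without wild type 5; all others within 1.5 times). With the replicate number as a block (replicate block) they were 91, and 0 members passed; same-numbered arrays did not deviate together (r of -0.28 to 0.0085), so the numbers were not taken as pairs. Probe sets associated with Col2a1 numbered 93, but 43 on the array median, 22 without the intensity trend, 1370 in males, 622 with sex, 602 with the poly-A split, 0 without KO 2 and KO 5, and 0 (without KO 2) to 245 (without KO 3) with single arrays left out. Members among them numbered 8, but 2 without the trend, 0 without KO 2 and KO 5, and 0 to 8 with single arrays left out (5 without KO 6). Other cartilage genes called between the groups numbered 0, but 1 with the poly-A split, the array median or quantile normalization (Fgfr3 each), 2 on spiked controls (Cytl1, Fgfr3) and with weights (Cytl1, Mmp9), 4 in males (Cytl1, Susd5, Fgfr3, Mmp9), 3 with sex (Cytl1, Susd5, Mmp9), 1 without KO 2 and KO 5 (P4ha1), and 0 to 1 with single arrays left out (Fgfr3 without KO 6). The cause of these shifts was not tested. The settings without KO 2 and KO 5 and at equal Col2a1 were chosen after seeing the data.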

Other observations

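Averaged over the list, skeletal muscle genes were dim on every array. Of 15 genes 10 passed the minimum mean signal, and the list mean lay between 5.52 and 6.21 in wild type and between 5.56 and 6.59 in KO. Ckm, muscle creatine kinase, read 8.4 to 10.1 on 4 wild type arrays, 56.7 on wild type 2 and 55.9 to 98.9 in KO on its brightest probe set. Its log2(signal + 16) rose by 1.53 ± 0.26 in KO (SE; limma, adjusted p = 0.00895), while its other probe set differed by -0.22 (adjusted p = 0.967). The brightest probe set reached the minimum mean signal only through KO, the group where it was higher. Acta1, skeletal actin, was brighter, at 82.4 to 186.8 in wild type and 108 to 293.2 in KO, and differed by 0.67 ± 0.25 (SE; limma, adjusted p = 0.503). Neither followed Col2a1 within groups (r of 0.33 and 0.062).

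Respiratory ciliated genes had a list mean of 9.23 to 9.48 in wild type and 9.28 to 9.68 in KO. Cfap126 and Spag6l, parts of motile cilia, had the smallest p between the groups, with log2 differences of 0.24 and 0.25 (limma, adjusted p = 0.698 and 0.906), and r of -0.77 and -0.66 with Col2a1 within groups.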
